A study of Mus musculus with 12 samples.

Results

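The genes described here were 10 components of the inflammasome and of the IL-1 cytokine family: the cytokine genes Il1a, Il1b and Il18, the sensor genes Nlrp3, Nlrp1b and Aim2, the adaptor gene Pycard, the caspase genes Casp1 and Casp4, and the pore-forming gene Gsdmd. They were taken by symbol from a raw count table of 55376 genes. All 10 were present, and all 10 were among the 17716 genes that reached a level of 1 CPM (counts scaled to a common library size) in at least 4 of the 12 samples. The table came from mouse oligodendrocytes isolated from whole brain at postnatal day 40 by cell sorting for the oligodendrocyte antigen O1, with cells carrying the leukocyte antigen CD45 removed. Each sample pooled 2 brains, and each genotype had 4 samples. The labels give the strain of all samples as C57BL/6, and the study lists the p21-deficient line as backcrossed from 129S6/SvEvTac. WT mice were labelled wild-type, and their Cre and floxed allele status is not given in the sources used here. In Cnp-Cre Jab1fl/fl mice, Jab1 (gene Cops5), a subunit of the COP9 signalosome, was targeted for deletion where the Cnp promoter drives Cre. These cells include late oligodendrocyte precursors, oligodendrocytes and Schwann cells, and the study reports recombination in part of the precursors and oligodendrocytes. Cnp-Cre Jab1fl/fl p21CIP1-/- mice, called double mutants here, also lacked the cell cycle inhibitor p21 (gene Cdkn1a) in every cell of the body. No group with the p21 deletion alone and no group with Cre alone was analysed here.

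Inflammasomes are protein platforms that assemble in the cytosol when a sensor detects a microbial product or a sign of cell damage. NLRP3, NLRP1B and AIM2 are sensors, and the adaptor ASC (gene Pycard) joins NLRP3 and AIM2 to caspase-1. Caspase-1 cleaves the precursors of IL-1β and IL-18 and the pore-forming protein gasdermin D. Caspase-11 (gene Casp4 in this annotation) senses bacterial lipopolysaccharide inside the cell and also cleaves gasdermin D. In the brain these genes are best known from microglia, the resident macrophages, although some of them, such as Il18, are also expressed by other cells. In bulk samples such as these, more cells of a type and more RNA per cell cannot be told apart.

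The samples held between 61485556 and 153495112 counts, so that a floor of 3 counts corresponded to well under 1 CPM in every library. The 12 markers of mature oligodendrocytes were detected in every genotype, and their summed level was 48066 to 112900 CPM in WT, 8431 to 35415 CPM in Cnp-Cre Jab1fl/fl and 16601 to 53597 CPM in double mutant samples. Of the 12, 7 were lower in Cnp-Cre Jab1fl/fl than in WT at an adjusted p below 0.05 in edgeR. Their median log2 fold change over all 12 was -2.23. Between double mutant and WT this median was -1.38. None of the 12 was called there, in a comparison that called 0.192% of all genes tested. The counts covered whole genes and did not separate the deleted exons. Cops5 stood at 48.4 to 139 CPM in WT, 42.5 to 86.1 CPM in Cnp-Cre Jab1fl/fl and 45.5 to 87.5 CPM in double mutant samples. Cdkn1a stood at 17.0 to 89.0 CPM, 366 to 603 CPM and 63.3 to 106 CPM in the same order. The study reports less Cops5 mRNA by quantitative PCR in sorted oligodendrocytes and less JAB1 protein in optic nerves of Cnp-Cre Jab1fl/fl mice. In the counts, Cops5 did not pass in edgeR between either mutant and WT. Its log2 differences were -0.62 ± 0.36 (SE; edgeR adjusted p = 0.349) in Cnp-Cre Jab1fl/fl and -0.82 ± 0.39 (SE; edgeR adjusted p = 0.424) in double mutant samples.

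Microglia markers moved with the genotype and stand beside every result given here. The sum over 20 markers, all of which passed the filter on low counts, was 156 to 389 CPM in WT and 1349 to 3303 CPM in Cnp-Cre Jab1fl/fl samples, with no overlap. In the double mutant it was 536, 1157 and 2576 CPM in samples 1, 2 and 5 and 22705 CPM in sample 3, which stood apart from the other 11 libraries. Ptprc and Itgam, which encode CD45 and CD11b, the antigens used to exclude leukocytes, summed to 0.567 to 3.62 CPM in WT, 43.3 to 136 CPM in Cnp-Cre Jab1fl/fl and 7.22 to 151 CPM in double mutant samples. From cytometry of the sorted cells, the study reports no overt contamination with CD45-positive cells in any genotype. It does not fully exclude a small share of other cells. Of the 20 microglia markers, 18 were higher in Cnp-Cre Jab1fl/fl than in WT at an adjusted p below 0.05 in edgeR, with a median log2 fold change of 3.85. Markers of blood-derived and border immune cells were at lower sums than the microglia markers in every sample. The 9 neutrophil or monocyte markers summed to 0.684 to 2.28 CPM in WT, 8.08 to 16.7 CPM in Cnp-Cre Jab1fl/fl and 2.36 to 158 CPM in double mutant samples, with the highest sum again in double mutant 3. Only 1 of these 9 passed the filter, and 2 were at 0 in all WT and 2 in all Cnp-Cre Jab1fl/fl samples. The 8 border macrophage markers summed to 4.08 to 7.88, 4.22 to 12.97 and 6.86 to 56.5 CPM, and the 8 T cell markers to 2.12 to 5.55, 1.55 to 24.3 and 3.73 to 9.43 CPM, in the same order of genotypes. Of 7 endothelial markers, 5 were higher in Cnp-Cre Jab1fl/fl than in WT in edgeR, with sums of 697 to 4642 CPM against 299 to 675 CPM, and 577 to 4425 CPM in the double mutant. Astrocyte markers summed to 3006 to 12796 CPM over all 12 samples, and none of the 8 was called in any comparison. None of 8 neuron markers and 1 of 6 precursor markers, the latter higher, was called between Cnp-Cre Jab1fl/fl and WT. The part of these markers in the results on single genes was not tested beyond the values given below.

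**Figure D1:**
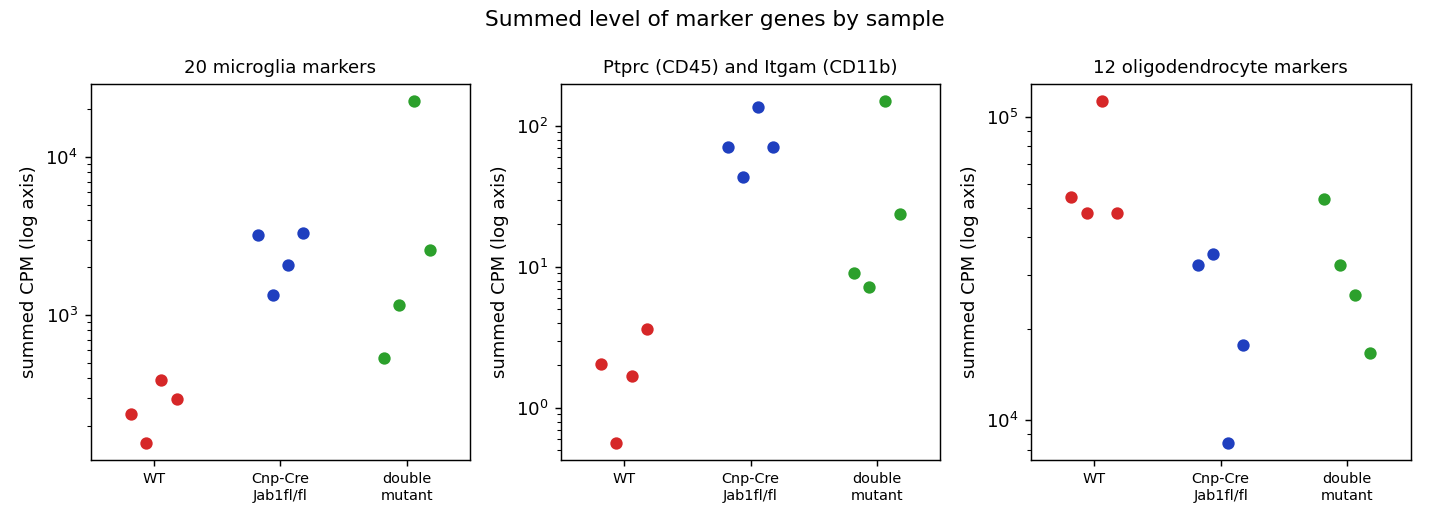
Summed level of marker genes in each of the 12 samples, in CPM on a log axis, for 20 microglia markers (left), Ptprc and Itgam (middle; Itgam is also among the 20) and 12 markers of mature oligodendrocytes (right). Points are samples in order of replicate number. The microglia markers of all 4 Cnp-Cre Jab1fl/fl samples lay above all 4 WT samples, and double mutant 3 reached 22705 CPM.

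Promoter sequences are shown for 4 of the genes whose levels separated the genotypes, because these 4 were all higher in Cnp-Cre Jab1fl/fl than in WT and their windows show which motifs of macrophage regulators they share and which they do not. The sequences are from RefSeq, build GRCm38.p6, and are written 5′ to 3′ on the strand of the gene, ending at the base before the annotated gene. Capitals mark the core motif of the macrophage factor PU.1, searched as GAGGAA on both strands, or a kappa B motif, the binding motif of NF-κB.
Nlrp1b, chr11:71230734-71230983, minus strand: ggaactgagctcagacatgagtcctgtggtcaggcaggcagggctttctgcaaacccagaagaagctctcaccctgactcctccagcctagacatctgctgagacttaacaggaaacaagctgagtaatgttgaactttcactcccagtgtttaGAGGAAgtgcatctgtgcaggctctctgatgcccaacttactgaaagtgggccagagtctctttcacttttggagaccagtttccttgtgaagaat
Pycard, chr7:127993868-127994117, minus strand: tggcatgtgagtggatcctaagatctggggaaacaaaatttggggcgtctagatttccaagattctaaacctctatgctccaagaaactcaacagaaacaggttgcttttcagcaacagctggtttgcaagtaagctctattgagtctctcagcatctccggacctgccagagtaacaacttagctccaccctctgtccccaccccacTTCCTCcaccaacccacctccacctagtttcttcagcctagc
Casp4, chr9:5308599-5308827, plus strand: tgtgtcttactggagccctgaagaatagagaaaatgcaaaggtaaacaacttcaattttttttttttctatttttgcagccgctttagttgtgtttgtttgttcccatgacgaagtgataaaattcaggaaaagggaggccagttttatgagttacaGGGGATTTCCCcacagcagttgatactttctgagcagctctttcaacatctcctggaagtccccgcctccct
Il1b, chr2:129371140-129371389, minus strand: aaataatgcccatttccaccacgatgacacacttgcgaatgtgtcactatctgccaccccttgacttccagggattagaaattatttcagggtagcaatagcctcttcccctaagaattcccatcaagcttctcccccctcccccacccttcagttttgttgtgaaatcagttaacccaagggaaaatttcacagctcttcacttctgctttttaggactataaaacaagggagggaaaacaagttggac
The printed windows of Nlrp1b and Pycard held the PU.1 core and that of Casp4 held a kappa B motif, whereas the window of Il1b held neither. A further window of Nlrp1b, not printed, also held neither. All 4 printed windows held a match to the motif of C/EBP, another regulator of macrophage genes, which is not capitalised. RefSeq gave 12 windows for 9 of the 10 genes, and none was given for Gsdmd. At least 1 window held the PU.1 core in 6 of the 9 genes, namely Aim2, Il1a, Pycard, Casp1, Nlrp3 and Nlrp1b. Over 32851 windows of 250 bases from all genes, 23.3% held it. The kappa B motif was present for 2 of the 9 genes, Casp4 and Nlrp3, against 3.90% of all windows. A C/EBP motif, searched as TTNNGNAA on both strands, was present for 7 of the 9 genes against 36.8% of all windows. The AP-1 motif TGANTCA was found for Il1a alone, against 6.75% of all windows, and the interferon-stimulated response element, searched as GAAANNGAA on both strands, for none of the 9, against 7.13%. In 1 window matches to the PU.1 core and to C/EBP shared bases, and no other pair of motifs did. Casp4, Nlrp3 and Nlrp1b had 2 windows each, those of Casp4 overlapping, and so more chances of a match than a single window of the background. A match describes the letters only.

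To compare levels between genes, CPM was divided by exon length in kilobases, taken over the exons of all annotated transcripts of a gene. This length can exceed that of the transcript present, which would understate the level, so the order of genes is approximate. In WT, Il18 was at 179.6 ± 46.0 CPM per kilobase (SD, n = 4), far above all the others. Gsdmd followed at 1.64 ± 1.24, and Aim2, Pycard and Casp1 lay between 0.668 and 0.780 CPM per kilobase and did not differ from each other or from Gsdmd beyond their spread. Nlrp3, Nlrp1b and Il1a were below 0.04 CPM per kilobase, and Il1b and Casp4 had 0 counts in all 4 WT samples.

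In Cnp-Cre Jab1fl/fl samples the genes lay closer together. Il18 still led at 107 ± 37.3 CPM per kilobase, followed by Gsdmd at 19.5 ± 8.13 and by Il1b at 9.98 ± 5.14. Pycard, Nlrp1b, Casp1 and Aim2 lay between 4.11 and 4.66 CPM per kilobase, closer together than their spread, and Casp4, Il1a and Nlrp3 followed at 2.93 ± 2.19, 2.39 ± 1.71 and 1.25 ± 0.672. In the double mutant, Il18 was at 103 ± 38.0 and Gsdmd at 8.76 ± 8.43 CPM per kilobase. Below them, Pycard at 3.94 ± 5.26, Casp4 at 2.68 ± 2.53, Il1a at 2.31 ± 4.61 and Il1b at 1.55 ± 2.79 had SDs close to or above their means, so their order is not resolved. Nlrp1b and Nlrp3 were at 0.412 ± 0.239 and 0.216 ± 0.276 CPM per kilobase, the latter the lowest of the 10.

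**Figure D2:**
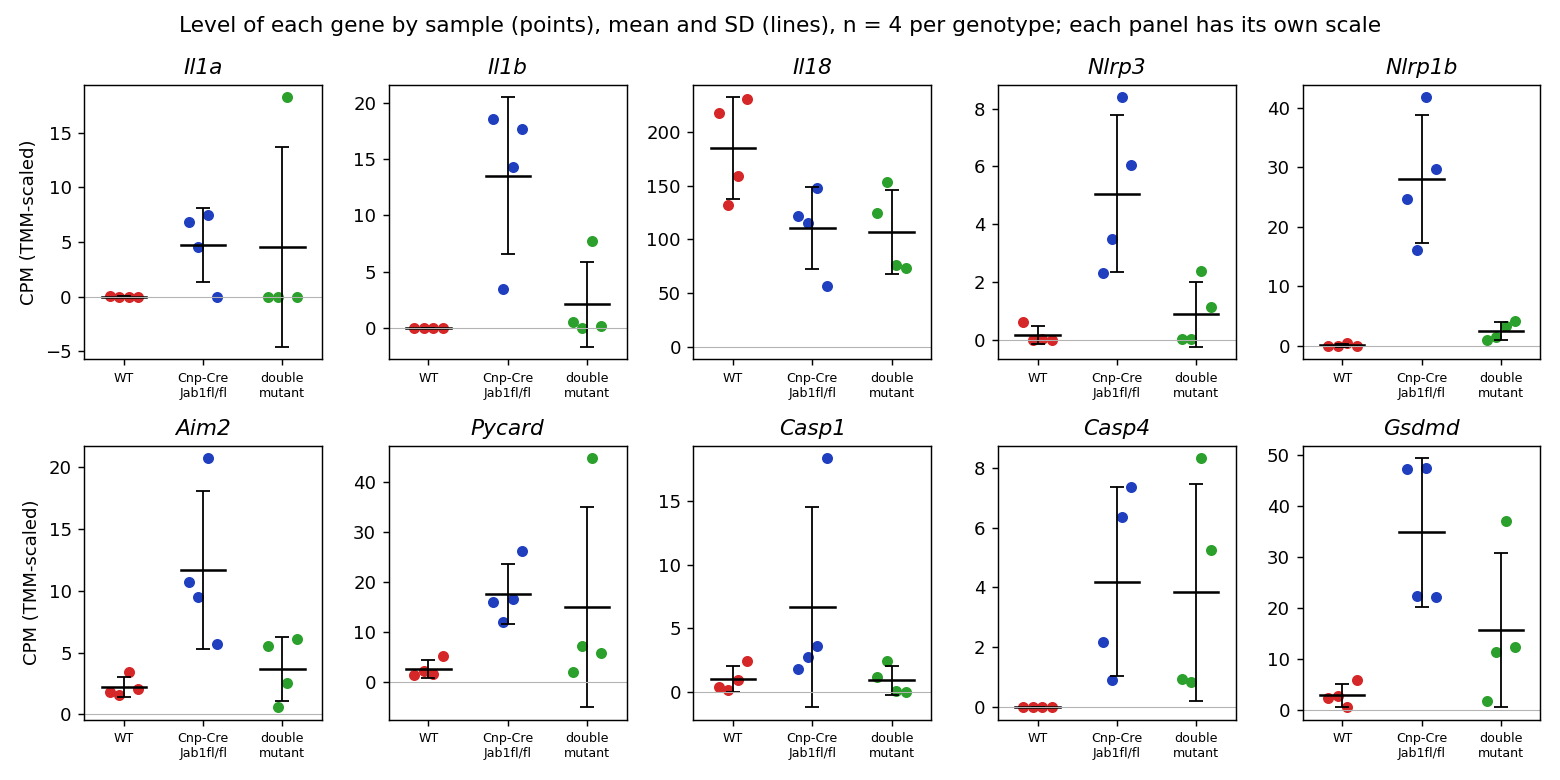
Level of each of the 10 genes in each sample, in CPM scaled with TMM factors (the vertical axis differs between panels). Points are samples, horizontal lines are means and bars are SDs over 4 samples per genotype. Il1b and Casp4 were at 0 in all WT samples, Nlrp1b was highest in the 4 Cnp-Cre Jab1fl/fl samples, and Il1a and Pycard peaked in double mutant 3.

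The first comparison asked how these genes differed between Cnp-Cre Jab1fl/fl and WT oligodendrocyte samples. Of the 10 genes, 7 were higher in Cnp-Cre Jab1fl/fl samples at an adjusted p below 0.05 (edgeR quasi-likelihood test over all genes, Benjamini-Hochberg adjustment): Il1b, Casp4, Nlrp1b, Gsdmd, Pycard, Aim2 and Il1a. None of the 10 was lower. Over all genes tested, 919 (5.19%) were higher. The median log2 fold change of the 10 genes was 4.41, against 0.02 over all genes tested. In 7 of the 10 genes every Cnp-Cre Jab1fl/fl sample lay above every WT sample, which held for 8.73% of all genes. These 7 included Nlrp3, which did not pass the test, and did not include Il1a, which did. Il1a, Il1b, Nlrp3, Nlrp1b and Casp4 were below 1 CPM in every WT sample, so they passed the filter through mutant samples only. For them a level above WT was favoured in advance, so the shares over all genes are not a like comparison. Il1b and Gsdmd also belong to a list of genes that the study chose on these same samples, so their direction is not independent evidence.

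The cytokine genes differed from each other. Il1b, which encodes the precursor of the secreted cytokine IL-1β, had 0 counts in all 4 WT samples. It was at 18.6, 3.44, 14.4 and 17.7 CPM in Cnp-Cre Jab1fl/fl samples 1 to 4, with 413 to 1512 counts each. All 4 mutant samples were therefore above WT, and sample 2 was the lowest of them. Against a floor of 3 counts per WT library, Il1b was at least 477-fold higher (edgeR adjusted p = 0.00171). Il1bos, an antisense gene that overlaps Il1b without sharing exon bases, was at 0.0739 CPM in Cnp-Cre Jab1fl/fl 1 and at 0 in the other 3.

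Il1a, the sister cytokine gene that lies beside Il1b on chromosome 2, was less even. It was at 6.80, 4.57, 7.47 and 0 CPM in Cnp-Cre Jab1fl/fl samples 1 to 4. WT 1 held 4 counts and the other WT samples held 0. Thus 3 mutant samples had 544 to 552 counts, while Cnp-Cre Jab1fl/fl 4, which had the second highest Il1b level, had none. The edgeR adjusted p was 0.0334. It ranged from 0.0114 to 0.0949 when 1 sample was left out and stayed below 0.05 in these fits only without Cnp-Cre Jab1fl/fl 2 or 4. Exons of Il1a share 222 bases (11.2% of their length) with the antisense gene Gm14023, and the counting was not stated to use strand. Gm14023 was at 3.15 CPM in Cnp-Cre Jab1fl/fl 4, the sample without Il1a counts.

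Il18, the precursor of the other cytokine that caspase-1 releases, went the opposite way without passing the test. Its levels were 218, 132, 159 and 231 CPM in WT 1, 3, 5 and 6 and 122, 116, 148 and 56.7 CPM in Cnp-Cre Jab1fl/fl 1 to 4. The groups overlapped, since Cnp-Cre Jab1fl/fl 3 was above WT 3. Its log2 fold change was -0.63 ± 0.34 (SE; edgeR adjusted p = 0.314).

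Among the sensors, Nlrp1b separated the genotypes most clearly. It was at 0.0567, 0, 0.547 and 0.0444 CPM in WT 1, 3, 5 and 6, which is 0 to 52 counts, and at 24.7, 16.1, 41.7 and 29.7 CPM in Cnp-Cre Jab1fl/fl 1 to 4, with 1935 to 3038 counts. No sample of one group came near the other. Nlrp1b rose by a log2 fold change of 7.60 ± 1.26 (SE; edgeR adjusted p = 0.00653). Nlrp1b has near-identical paralogs, Nlrp1a among them, so reads could be split between the copies and the level of any one copy is uncertain.

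Aim2, a sensor of DNA in the cytosol, was present in WT already. It was at 1.80, 1.55, 3.43 and 2.08 CPM in WT 1, 3, 5 and 6, and at 10.8, 9.52, 20.7 and 5.69 CPM in Cnp-Cre Jab1fl/fl 1 to 4. The groups did not overlap, and the log2 fold change was 2.53 ± 0.62 (SE; edgeR adjusted p = 0.0316). Its call was lost when any of the 4 WT samples, or Cnp-Cre Jab1fl/fl 1 or 3, was left out (adjusted p 0.0544 to 0.111).

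Nlrp3, the sensor of a wide range of damage signals, was at 0.605, 0, 0.0210 and 0 CPM in WT 1, 3, 5 and 6 and at 2.29, 3.48, 8.39 and 6.07 CPM in Cnp-Cre Jab1fl/fl 1 to 4. The groups did not overlap, and of the WT counts 64 were in WT 1 and 2 in WT 5. The log2 fold change of 5.14 ± 1.78 (SE) missed the threshold in edgeR (adjusted p = 0.110). It passed without WT 1 (adjusted p = 0.0182), in DESeq2 (adjusted p = 0.00433) and in limma-voom (adjusted p = 0.0352).

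Pycard, the adaptor, was at 1.51, 2.18, 1.64 and 5.31 CPM in WT 1, 3, 5 and 6 and at 16.0, 12.04, 16.6 and 26.2 CPM in Cnp-Cre Jab1fl/fl 1 to 4. The lowest mutant sample was above the highest WT sample. Pycard rose by a log2 fold change of 2.85 ± 0.59 (SE; edgeR adjusted p = 0.0155), and the call held without any 1 of the 8 samples. Pycard exons share 485 bases (12.8%) with the antisense gene Gm45205, which stayed at or below 1.21 CPM in all 12 samples.

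The neighbouring caspase genes on chromosome 9 behaved differently from each other. Casp4, the intracellular lipopolysaccharide sensor, had 0 counts in all 4 WT samples and was at 2.18, 0.899, 6.35 and 7.36 CPM in Cnp-Cre Jab1fl/fl 1 to 4, from 108 to 579 counts. It was at least 147.9-fold higher than the WT floor (edgeR adjusted p = 0.00703). Casp1, the protease of the canonical inflammasome, was at 0.378, 0.189, 0.968 and 2.47 CPM in WT 1, 3, 5 and 6 and at 1.82, 2.76, 3.63 and 18.4 CPM in Cnp-Cre Jab1fl/fl 1 to 4. WT 6 lay above Cnp-Cre Jab1fl/fl 1, so the groups overlapped, and sample 4 alone carried most of the mutant level. The log2 fold change of Casp1 was 2.86 ± 1.09 (SE) and did not pass in edgeR (adjusted p = 0.143). Without Cnp-Cre Jab1fl/fl 4 it was 1.53, whereas DESeq2 on all 8 samples gave an adjusted p of 0.0330.

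Gsdmd, whose cleaved product forms the membrane pore of pyroptosis, was at 2.43, 2.73, 0.610 and 5.95 CPM in WT 1, 3, 5 and 6. It was at 47.4, 22.3, 47.6 and 22.1 CPM in Cnp-Cre Jab1fl/fl 1 to 4, all above WT. Its log2 fold change was 3.69 ± 0.66 (SE; edgeR adjusted p = 0.00863), and the call held without any 1 of the 8 samples. Counts of mRNA do not measure cleavage of Gsdmd or of the cytokine precursors.

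**Figure D3:**
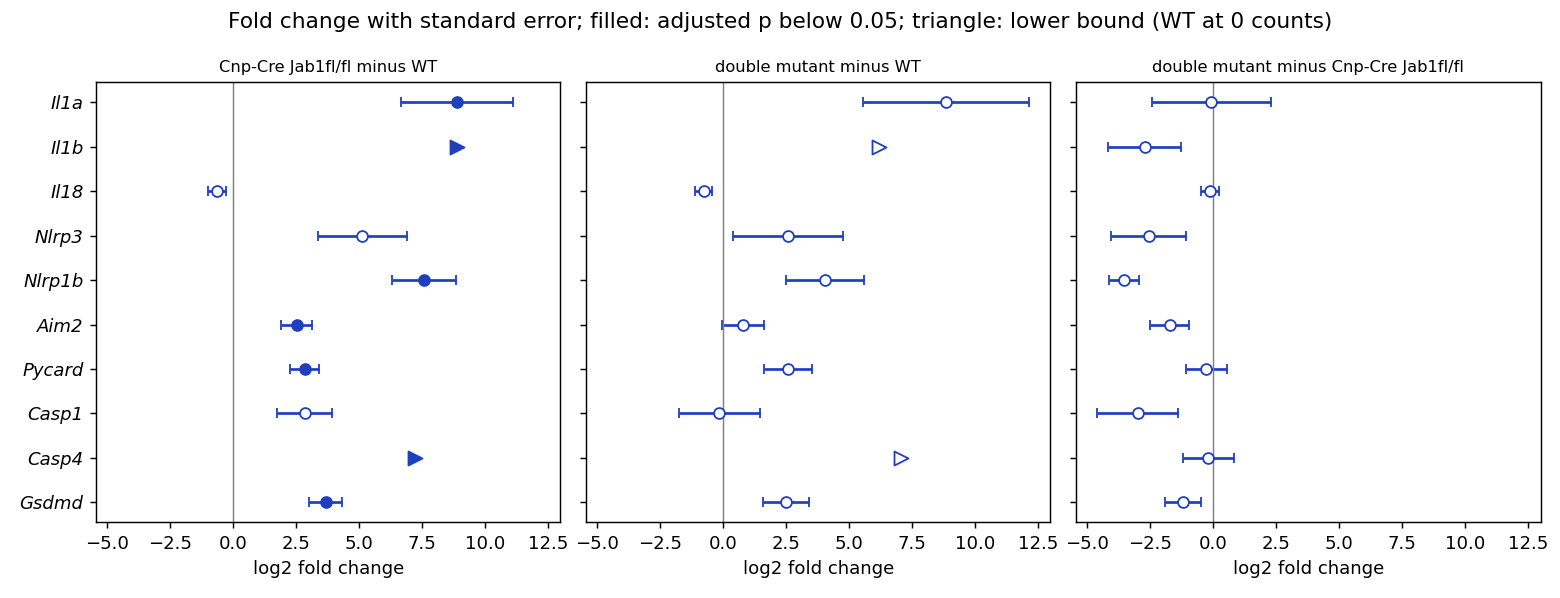
Log2 fold change of each gene with its standard error in the 3 comparisons between genotypes, 4 samples per group. Filled symbols have an edgeR adjusted p below 0.05, and triangles are lower bounds for genes with 0 counts in all WT samples. Filled symbols occur in the comparison of Cnp-Cre Jab1fl/fl with WT only, for 7 genes, and in the comparison of the mutants all 10 values lie below 0.

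The calls for these genes depended on what else was in the model. When all 12 samples were fitted together, 4 of the 7 genes were still called, Il1b, Casp4, Nlrp1b and Gsdmd. When the mean log2 level of the 20 microglia markers was added to that fit as a covariate, none of the 10 was called in any comparison (edgeR adjusted p 0.117 to 0.957 between Cnp-Cre Jab1fl/fl and WT), and the number of genes called in this comparison over the whole table went from 941 to 21. The genes did not behave alike in it. The log2 difference of Aim2 was 2.65 with the covariate and 2.53 without it, and that of Nlrp1b 6.06 and 7.59. The fitted values of Il1b, 10.59 and 13.49, and of Casp4, 9.55 and 11.81, also stayed large, although they rest on WT samples at 0. Those of Gsdmd (1.74 and 3.69), Pycard (0.49 and 2.85), Nlrp3 (1.01 and 5.14) and Il1a (0.09 and 8.90) were smaller with the covariate, and that of Casp1 was larger (5.34 and 2.86). The covariate itself was uneven, with a mean log2 marker level of 9.26 in double mutant 3 and 2.20 to 6.70 in the other libraries. This fit was not repeated without double mutant 3, so the weight of that library in it was not tested. In this design the marker level and the genotype rise together, so the 2 cannot be told apart.

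Dividing by the microglia markers in each sample gave a description of which genes rose more or less than these markers. The measure was log2(CPM + 1) of the gene minus the mean log2(CPM + 1) of the 20 markers. Nlrp1b was the 1 gene that was higher on this scale in every Cnp-Cre Jab1fl/fl sample than in every WT sample. Its values were -2.02, -1.57, -0.77 and -1.58 in Cnp-Cre Jab1fl/fl 1 to 4 and -3.05, -2.20, -3.004 and -3.32 in WT 1, 3, 5 and 6, a mean difference of 1.41. Il18 was lower than in WT in every Cnp-Cre Jab1fl/fl sample, at 0.45 ± 0.86 against 4.42 ± 0.51 (SD, n = 4). The other 8 genes overlapped between these groups on this scale. Gsdmd had a mean difference of 0.09 and Il1b one of 0.47. For genes near 0 in WT the pseudocount set the sign: with 0.1 in place of 1, the differences of Il1a, Nlrp3 and Casp4 went from -1.07, -0.88 and -1.05 to 0.92, 1.31 and 1.57, and those of Il1b and Nlrp1b from 0.47 and 1.41 to 3.39 and 3.65.

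**Figure D4:**
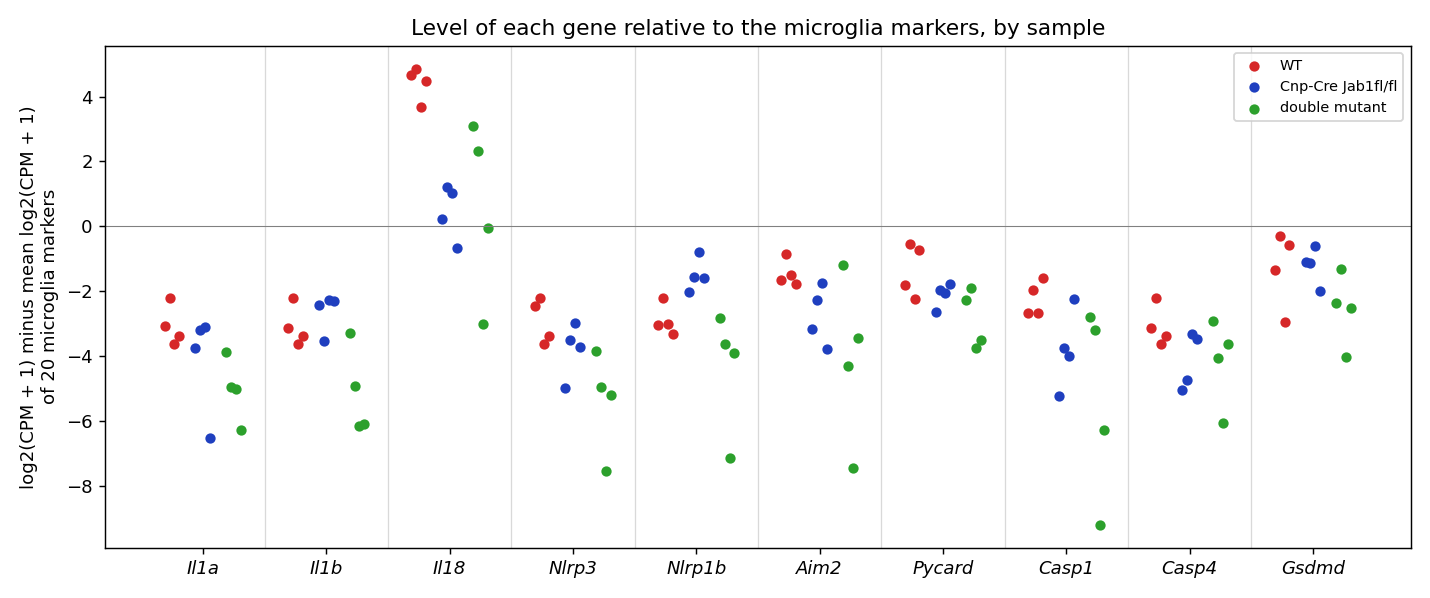
Level of each gene relative to the microglia markers in each sample, as log2(CPM + 1) minus the mean log2(CPM + 1) of 20 markers. Points are samples and colours are genotypes. Il18 of all 4 WT samples lay above the other genotypes, Nlrp1b was highest in the 4 Cnp-Cre Jab1fl/fl samples, and double mutant 3 gave the lowest value of all samples for every gene but Il1a.

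The second comparison asked whether the genes still differed from WT when p21 was absent too. None of the 10 genes passed at an adjusted p below 0.05 between double mutant and WT samples in edgeR, where 34 of all genes tested (0.192%) did. At an unadjusted p below 0.05, 6 of the 10 genes were higher (Casp4, Il1b, Pycard, Gsdmd, Il1a and Nlrp1b) and 1 was lower (Il18), against 12.4% of all genes in either direction. In Il1b, Nlrp1b and Casp4 every double mutant sample was above every WT sample, which held for 4.01% of all genes. These genes passed the filter on low counts through mutant samples only, so that share is not a like comparison. The median log2 fold change of the 10 genes was 2.58, against 0.00 over all genes.

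Casp4 came closest to the threshold. It was at 0.939, 0.848, 8.32 and 5.25 CPM in double mutant 1, 2, 3 and 5, from 87 to 882 counts, against 0 counts in WT. This was at least 135.3-fold higher (edgeR adjusted p = 0.0786), and at least 82.7-fold without double mutant 3. The gene was called when double mutant 1 was left out (adjusted p = 0.0365), when all 12 samples were fitted together (adjusted p = 0.0139) and in DESeq2 (adjusted p = 2.14e-09), which called 4.94% of the genes to which it gave an adjusted p.

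Il1b was at 0.507, 0.0163, 7.76 and 0.133 CPM in double mutant 1, 2, 3 and 5, which is 47, 2, 823 and 13 counts. Sample 3 held most of the group's Il1b, and its microglia markers were the highest of all libraries. Over the group Il1b was at least 74.2-fold above the WT floor (edgeR adjusted p = 0.191), and without double mutant 3 at least 7.71-fold. Double mutant 2, with 2 counts, was below the floor of 3 counts itself. Il1a was carried by the same library, with 1931 counts or 18.2 CPM in double mutant 3 and 0 counts in the other 3. Without that library its log2 difference from WT went from 8.86 to -3.19.

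Pycard and Gsdmd were also highest in double mutant 3. Pycard was at 2.03, 7.25, 44.8 and 5.85 CPM in double mutant 1, 2, 3 and 5, and its log2 fold change over WT was 2.57 ± 0.95 (SE; edgeR adjusted p = 0.298). Gsdmd was at 1.83, 11.4, 37.2 and 12.4 CPM, with a log2 fold change of 2.49 ± 0.92 (SE; edgeR adjusted p = 0.298). Double mutant 1 lay within the WT range for both genes. Without double mutant 3, the log2 difference was 0.95 for Pycard and 1.57 for Gsdmd.

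Of the sensors, Nlrp3 was highest in double mutant 3, while Nlrp1b and Aim2 were highest in double mutant 5. Nlrp1b was at 1.08, 1.51, 3.40 and 4.13 CPM in double mutant 1, 2, 3 and 5, above all WT samples, with a log2 fold change of 4.05 ± 1.56 (SE; edgeR adjusted p = 0.32). Aim2 was at 5.50, 0.571, 2.55 and 6.08 CPM and overlapped WT. Nlrp3 was at 0.0216, 0.00815, 2.37 and 1.12 CPM, so that samples 1 and 2 were at WT level. Their log2 fold changes were 0.80 ± 0.84 and 2.59 ± 2.19 (SE).

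Casp1 was at 1.14, 2.41, 0.0566 and 0 CPM in double mutant 1, 2, 3 and 5. Double mutant 3 held 6 counts of Casp1 and double mutant 5 held none, although these were the libraries with the highest microglia marker sums of their group. The log2 difference from WT was -0.15 ± 1.61 (SE). Il18 was at 125, 154, 75.8 and 72.9 CPM, with a log2 fold change of -0.76 ± 0.33 (SE; edgeR adjusted p = 0.380). Relative to the microglia markers, Il18 was lower in every double mutant sample than in every WT sample.

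The third comparison asked whether loss of p21 changed these genes in mice with the Jab1 deletion. It used the same Cnp-Cre Jab1fl/fl and double mutant samples as the first 2 comparisons. All 10 log2 differences were below 0, with a median of -1.45 against 0.02 over all genes. Il1a, Il1b, Nlrp3, Casp1 and Casp4 passed the filter on low counts only with Cnp-Cre Jab1fl/fl samples counted. For them a level below that genotype was favoured in advance, so the median over all genes is not a like comparison. None of the 10 passed the edgeR test. No gene of the whole table passed (0%). At an unadjusted p below 0.05 there was 1 of the 10 genes, Nlrp1b, against 4.995% of all genes. Nlrp1b was also the 1 gene of the 10 whose groups did not overlap, with every double mutant sample below every Cnp-Cre Jab1fl/fl sample, which held for 1.91% of all genes.

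Nlrp1b went from 28.1 ± 10.7 CPM in Cnp-Cre Jab1fl/fl to 2.53 ± 1.47 CPM (SD, n = 4) when p21 was deleted as well. The log2 difference was -3.52 ± 0.60 (SE), with an unadjusted p of 0.000122, which ranked 8 among the 17716 genes, and an edgeR adjusted p of 0.248. DESeq2, which called 0.499% of the genes to which it gave an adjusted p, called Nlrp1b (adjusted p = 3.69e-06). Leaving out any 1 of the 8 samples kept the difference between -3.87 and -3.25, with edgeR adjusted p values from 0.145 to 1. The same direction was seen relative to the microglia markers, where the group means were -1.49 ± 0.52 and -4.37 ± 1.90 (SD, n = 4) and the groups did not overlap. Double mutant 3, with 22705 CPM of microglia markers, the highest of all libraries, had 3.40 CPM of Nlrp1b. Cnp-Cre Jab1fl/fl 2, with 1349 CPM of these markers, the lowest of its group, had 16.1 CPM. These are single libraries. With the microglia score in the joint fit Nlrp1b was not called between the mutants, and the part of microglia in the difference was not tested. The near-identical paralog Nlrp1a was at 0.0763 to 1.65 CPM in Cnp-Cre Jab1fl/fl samples. In double mutant 1, 2, 3 and 5 it was at 0, 0, 5.20 and 2.73 CPM, a log2 difference of 1.3 ± 2.0 (SE). Reads could be split between these copies, so how far Nlrp1b itself differed between the mutants is uncertain.

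The remaining genes did not separate the mutants. Il1b, Nlrp3, Casp1 and Aim2 had log2 differences of -2.71 ± 1.45, -2.55 ± 1.495, -2.98 ± 1.60 and -1.72 ± 0.79 (SE), with edgeR adjusted p values between 0.968 and 0.996. Without double mutant 3 the difference of Il1b was -5.98 and that of Il1a went from -0.06 to -11.8, neither past the threshold. Gsdmd differed by -1.19 ± 0.72 (SE). Pycard, Casp4 and Il18 differed by -0.27 ± 0.82, -0.17 ± 1.03 and -0.11 ± 0.37 (SE), each smaller than its standard error.

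The wider pathway was described with 55 further genes, made up of other IL-1 family ligands, receptors and decoys, inflammasome sensors and regulators, and signalling adaptors. Of these, 51 were in the table and 36 passed the filter on low counts, and the IL-36 ligand genes Il36a, Il36b, Il36g and Il36rn were not analysed here. Between Cnp-Cre Jab1fl/fl and WT, 10 of the 36 rose and 1 fell at an adjusted p below 0.05 in edgeR, against 5.19% and 2.46% of all genes. Their median log2 difference was 0.32. None passed between double mutant and WT or between the mutants. At an unadjusted p below 0.05, 12 were higher and 3 lower than in WT, where 12.4% of all genes were below it in either direction, and 1 was higher and 3 lower between the mutants, where 4.995% were. Of the genes that rose, Il1rl1, Zbp1, Naip2 and Nlrp1a were below 1 CPM in every WT sample and passed the filter through mutant samples only.

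Of the IL-1 family ligands, Il33, an alarmin that oligodendrocytes and astrocytes make, was the gene that fell. It was at 386, 360, 888 and 407 CPM in WT 1, 3, 5 and 6 and at 70.0, 224, 56.9 and 63.7 CPM in Cnp-Cre Jab1fl/fl 1 to 4, with no overlap. The log2 fold change was -2.20 ± 0.50 (SE; edgeR adjusted p = 0.0235). In the double mutant it was at 307, 158, 80.4 and 62.6 CPM. Il1rn, the IL-1 receptor antagonist, had 0 counts in all 12 samples. Il18bp, the decoy that binds IL-18, was at 1.28 to 13.7 CPM in all 12 samples and overlapped between Cnp-Cre Jab1fl/fl and WT.

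Of the receptor genes, 3 passed the test, all of them higher. Il1rl1, the receptor of IL-33, was at or below 0.0105 CPM in WT and at 3.04, 3.48, 3.42 and 0.839 CPM in Cnp-Cre Jab1fl/fl 1 to 4 (edgeR adjusted p = 0.00584). Il1r1, the signalling receptor of IL-1, was at 0.147 to 1.71 CPM in WT and at 13.2, 1.27, 21.2 and 42.8 CPM in Cnp-Cre Jab1fl/fl 1 to 4 (log2 fold change 4.12 ± 1.03, SE; edgeR adjusted p = 0.0342). Sample 2 stayed in the WT range for Il1r1 and had the lowest sums of both endothelial and microglia markers of its group. The part of either cell type was not tested. Sigirr, an inhibitory receptor of the family, rose by a log2 fold change of 2.70 ± 0.63 (SE; edgeR adjusted p = 0.0259). The shared co-receptor Il1rap was at 111 to 276 CPM in WT and 17.9 to 112 CPM in Cnp-Cre Jab1fl/fl (log2 difference -1.71 ± 0.51, SE; edgeR adjusted p = 0.0670). The decoy receptor Il1r2 and the IL-18 receptor chain Il18r1 did not pass the filter on low counts.

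Of the other sensors and their partners, Zbp1, a sensor of Z-form nucleic acids, had 0 counts in WT and was at 10.9, 1.64, 4.07 and 10.5 CPM in Cnp-Cre Jab1fl/fl 1 to 4, at least 239.2-fold above the WT floor (edgeR adjusted p = 0.00408). In double mutant 1, 2, 3 and 5 it was at 0.0647, 4.45, 19.2 and 15.6 CPM. Naip5 and Naip2, sensors of bacterial flagellin and secretion system proteins, rose by log2 fold changes of 6.37 ± 1.26 and 6.03 ± 1.37 (SE; edgeR adjusted p = 0.0130 and 0.0235). Naip5 was also lower in every double mutant sample, at 0.0943 to 6.55 CPM, than in every Cnp-Cre Jab1fl/fl sample, at 11.6 to 53.3 CPM (edgeR unadjusted p = 0.00464, adjusted p = 0.763). Nlrp1a was at 0.0763 to 1.65 CPM in Cnp-Cre Jab1fl/fl and at 0 in WT, at least 27.7-fold higher (edgeR adjusted p = 0.0302) and at least 17.5-fold without Cnp-Cre Jab1fl/fl 3. The Naip genes and the Nlrp1 genes are families of near-identical copies, so the share of reads given to each copy is uncertain. Nlrc4, the adaptor of the Naip sensors, was at 1.51 to 3.15 CPM in WT and 0.0493 to 1.07 CPM in Cnp-Cre Jab1fl/fl (edgeR adjusted p = 0.385).

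Casp8, a death receptor caspase that can also cleave gasdermin D, was at 0.242 to 7.52 CPM in WT and at 18.5 to 51.0 CPM in Cnp-Cre Jab1fl/fl (log2 fold change 3.58 ± 0.81, SE; edgeR adjusted p = 0.0235). Txnip, a thioredoxin-binding protein reported as a partner of NLRP3, rose by 1.83 ± 0.37 (SE; edgeR adjusted p = 0.0137), and Gbp5, an interferon-induced GTPase, rose by 2.999 ± 0.81 (SE; edgeR adjusted p = 0.0455). The gasdermin gene Gsdme had a log2 difference of -1.52 ± 0.44 (SE; edgeR adjusted p = 0.0610), opposite in sign to Gsdmd. Of 3 partners of the pathway, Nek7, a kinase needed by NLRP3, P2rx7, an ATP-gated channel, and Myd88, the adaptor of IL-1 receptors, had log2 differences of 0.33 ± 0.28, -0.28 ± 0.35 and 0.90 ± 0.38 (SE), none past the threshold. The 25 genes of this list that did not pass ranged from -2.07 to 3.61 in log2 difference.

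**Figure D5:**
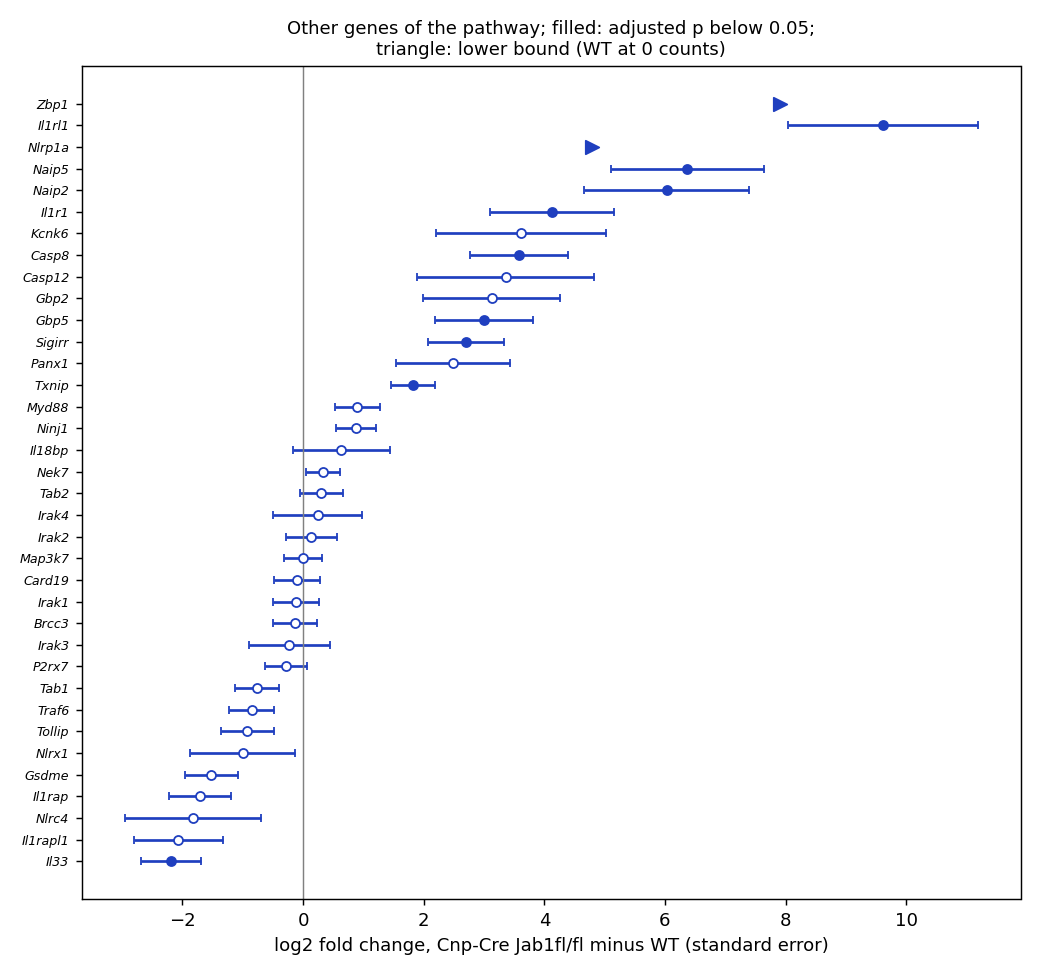
Log2 fold change with standard error of the 36 other pathway genes that passed the filter, Cnp-Cre Jab1fl/fl against WT, 4 samples each. Filled symbols have an edgeR adjusted p below 0.05 and triangles are lower bounds for genes with 0 counts in all WT samples. Il33 is the 1 filled symbol below 0, and 10 are above 0.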

How the data were processed

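RNA of O1-sorted oligodendrocytes was sequenced after SMART-Seq v4 amplification. The deposited file holds raw counts per gene: per the labels and the study's methods, the authors ran Trimmomatic 0.32 for trimming, STAR 2.5.3a for alignment to GRCm38 and featureCounts on GENCODE basic genes for counting. The use of strand and of multiply mapped reads is not given in the sources used here. Samples were grouped by genotype from their labels, and no pair of samples within a genotype agreed within sampling noise. Nothing states that the samples of a genotype came from separate litters or days, so p-values measure only the spread between them.

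Counts were tested with edgeR 4.0.16 (quasi-likelihood, TMM, 2 genotypes and 8 samples per fit) over the 17716 genes that reached 1 CPM in 4 or more samples, with Benjamini-Hochberg adjustment over all of them and a threshold of 0.05. The study's own filter was used. Levels are CPM with TMM factors of all 12 samples. A gene at 0 in a whole group was compared with a floor of 3 counts per library, which covers counting error only. The alternatives were DESeq2 1.42.0, its size factors in edgeR, upper-quartile scaling, omission of the filter, a filter at a mean of 10 CPM, a joint fit of all 12 samples without or with a replicate block or a microglia score, limma-voom 3.58.1 with quality weights, and each sample left out. R was 4.3.3.

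The genes, the pathway list and the marker lists were chosen with earlier results of these data known. From the pathway list, genes past the threshold in any comparison were named, together with Il1rn, Il33, Il1r1, Il1r2, Il1rap, Il18r1, Il18bp, Sigirr, Nlrc4, Casp8, Gsdme, Nek7, Txnip, P2rx7 and Myd88 whatever their values. Gene positions and exon lengths were from GENCODE on GRCm38.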

Additional observations from a re-analysis of the deposited data

Results flagged for a closer look

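In 28 groups of 4 samples with any spread (a gene in a genotype, on the log2(CPM + 1) scale), 5 had a sample far from the other 3. The limit gives about 1 in 20 groups by chance only for normally distributed values. Groups with samples at or near 0 do not meet this, so no excess over chance can be read from the number. Where the other 3 samples were at 0, as for Il1a below, any count at all was flagged. Il1a was at 18.2 CPM in double mutant 3 and 0 in the other double mutant samples. Il1a was at 0.0378 CPM in WT 1, from 4 counts, and 0 in the other WT samples. Il1b was lowest in Cnp-Cre Jab1fl/fl 2, at 3.44 CPM against 14.4 to 18.6 CPM in the others. Nlrp3 was at 0.605 CPM in WT 1 against at most 0.0210 CPM in the other WT samples. Nlrp1b was at 0.547 CPM in WT 5 against at most 0.0567 CPM in the other WT samples. The causes were not tested.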

How the results depend on the processing

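Between Cnp-Cre Jab1fl/fl and WT, the number of the 10 genes called was 7, and it was 3 of 4 tested with a mean of at least 10 CPM, 4 with all 12 samples in one fit and 0 when the microglia score or a replicate block was added to that fit. Il1b, Nlrp1b, Pycard, Casp4 and Gsdmd were called in all 8 fits with 1 sample left out. Aim2 and Il1a were called in 2 of these fits each and Nlrp3 in 1. Of the other pathway genes, 11 were called, against 17 in DESeq2, 6 of 24 tested at a mean of at least 10 CPM, 0 with the microglia score and 5 to 14 when 1 sample was left out. Over all genes, 1354 were called, against 2689 in DESeq2, 941 with all 12 samples, 21 when the microglia score was added to these and 678 to 1863 when 1 sample was left out. Between double mutant and WT, the count for the 10 genes was 0, and it was 1 (Casp4) in DESeq2, with all 12 samples and without double mutant 1. For the pathway genes it was 0, against 7 in DESeq2, 2 with all 12 samples and 0 to 2 when 1 sample was left out. Over all genes it was 34, against 862 in DESeq2, 21 without a filter, 140 at a mean of at least 10 CPM, 164 with all 12 samples, 20 with the microglia score and 1 to 274 when 1 sample was left out (274 without double mutant 1). Between the mutants, DESeq2 called 1 of the 10 genes (Nlrp1b), 1 pathway gene (Naip5) and 87 genes in all, against 0 of each in edgeR. In the other settings 0 to 5 genes were called in all, the 5 at a mean of at least 10 CPM and 1 in limma-voom. DESeq2 gave no adjusted p for Il1a and Il1b between double mutant and WT or for Pycard between the mutants.

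Directions of fold changes between genotypes changed only in comparisons with the double mutant and for values past no threshold. With the microglia score, Il1a, Nlrp3, Pycard and Casp1 were at -8.00, -2.82, -0.49 and 1.21 against WT. With 1 sample left out, the difference from WT ranged from -3.19 to 12.02 for Il1a and from -1.31 to 0.83 for Casp1, and the difference between the mutants from -11.8 to 0.38 for Il1a, -0.32 to 0.08 for Il18, -1.87 to 0.10 for Pycard and -0.88 to 0.28 for Casp4. The causes were not tested.

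Replicate numbers shared between genotypes did not mark paired samples: over 8 same-numbered pairs, deviations from the group means correlated at -0.189 to 0.084, and not every sample correlated best with its own number. With a replicate block on all 12 samples, 0 of the 10 genes and 0 pathway genes were called in any comparison, and 79, 8 and 0 genes of the whole table. The fold changes between Cnp-Cre Jab1fl/fl and WT stayed of similar size or were larger: with the block, the log2 values were 15.07 for Il1b, 12.13 for Casp4, 9.20 for Nlrp1b, 8.60 for Il1a, 4.55 for Gsdmd, 3.76 for Aim2 and 3.26 for Pycard (edgeR adjusted p 0.056 to 0.381), against 13.49, 11.81, 7.59, 8.90, 3.69, 2.53 and 2.85 for the same 12 samples without it. Such a block rests on numbers that are not shared by all samples.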
